A study of Mus musculus with 74 samples.

Results

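Single pro-epicardial cells in which the retinoic acid synthesising gene Aldh1a2 was detected were compared with those in which it was not, among cells with little of the cardiac actin transcript Actc1. The cells came from the pro-epicardial organ, the cluster of cells at the inflow of the embryonic heart that gives rise to the epicardium, of C57BL/6 mouse embryos at embryonic day 9.5. All embryos carried Tbx18Cre;mTmG, that is, a Cre recombinase driven by Tbx18 and a membrane reporter whose colour changes after recombination. The organ was dissociated, labelled cells were sorted one by one, and full-length cDNA was sequenced from each of 74 cells, with no treatment and no control genotype. The members were chosen by their own measured Actc1, Aldh1a2 and Lhx9 values. Of the 74 cells, 51 had Actc1 below 500 CPM (counts of the gene per 1000000 counts of the cell) and were kept. They split into 16 cells with at least 5 Aldh1a2 counts, called Aldh1a2+ here, and 35 cells with fewer, called Aldh1a2-. The split was repeated in the 32 cells with at least 5 counts of Lhx9, a LIM homeobox gene of mesothelial cells (11 Aldh1a2+ and 21 Aldh1a2-), and in the 19 cells with fewer (5 and 14).

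Retinoic acid is made from vitamin A, which retinol dehydrogenases such as Rdh10 oxidise to retinaldehyde and retinaldehyde dehydrogenases such as Aldh1a2 oxidise further. It binds nuclear receptors (RARs with RXR partners), is carried in the cell by CRABP proteins and is degraded by CYP26 enzymes. Retinoic acid sets the posterior limit of the heart field and induces anterior Hox genes, and Aldh1a2 is the main source of it in the mesoderm at this stage.

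Because Aldh1a2 chose the arms, its own values are a description only. Among the 35 Aldh1a2- cells 33 had no Aldh1a2 count and the rest had 1 and 3. Counts in the Aldh1a2+ cells started at 5, 7 and 13 and had a median of 70.5 and a maximum of 278. In CPM these cells ranged from 1.91 to 465, with a median of 47.6. At the Actc1 limit, the highest kept cell had 420 CPM and the lowest cell left out had 530 CPM. Lhx9 split cleanly, with a maximum of 1 count in Lhx9- cells and a minimum of 15 in Lhx9+ cells. The Aldh1a2+ share was 34.4% of Lhx9+ cells (exact Clopper-Pearson 95% interval 18.6% to 53.2%) and 26.3% of Lhx9- cells (9.15% to 51.2%). These intervals cover counting error only and overlap almost wholly.

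Estimated counts per kept cell ran from 216177 to 2618538, with a median of 892815. Median depth was 762597 in Aldh1a2+ and 915732 in Aldh1a2- cells. The gap was wider in Lhx9- cells, at 631508 against 1130539, than in Lhx9+ cells, at 788465 against 832884. The labels do not tie any cell to an embryo, so cells cannot serve as replicates of a condition. Comparisons are therefore given as levels, spread over cells, numbers of cells or folds of means, with no p-value. A fold given alone does not show how far the cells of the arms overlap. Errors are SD over cells. Epicardial lineage transcripts were widespread, with at least 5 counts of Tbx18 in 49, Wt1 in 48 and Tcf21 in 49 of the 51 cells. The description of the cells as non-muscle was only partly borne out. The sarcomere genes Tnni1 and Myl4 had at least 5 counts in all 51 cells, Tnnt2 in 50 and Myl7 in 49, whereas Myh6 did in 4, Nkx2-5 in 1 and Myh7 and Pln in 0 cells (up to 5.88% allowed by a count of 0). The cells are therefore called low-Actc1 cells below.

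Most genes had similar means in the arms. The detection filter (5 counts or more in 10% or more of the low-Actc1 cells) left 11470 genes. Of these, 298 (2.6%) had a mean at least 2-fold higher in Aldh1a2+ cells and 509 (4.44%) had one at least 2-fold lower, together 7.04%. Folds are ratios of mean CPM after adding 1 CPM to both means, which shrinks the folds of low genes. Among Lhx9+ cells 531 genes (4.63%) were higher and 640 (5.58%) lower by this measure (together 10.2%), and among Lhx9- cells 1024 (8.93%) were higher and 1540 (13.4%) lower (together 22.4%). The larger numbers in Lhx9- cells stand beside an arm of only 5 cells, in which 1 cell can move a mean. The median log2 fold over all genes was near 0 in each comparison (0.0049, 0.0046 and -0.011).

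Lhx9+ and Lhx9- cells share no cell, so the contrast was read in each separately. Higher in both were 97 genes (0.846%), which is 18.3% of the Lhx9+ list, where 8.93% of all genes were higher in Lhx9- cells, and 9.47% of the Lhx9- list, where 4.63% of all genes were higher in Lhx9+ cells. Another 119 genes were higher in Lhx9+ but lower in Lhx9- cells, or 22.4% of the Lhx9+ list beside 13.4% of all genes. Lower in both were 184 genes (1.6%), or 28.8% of the Lhx9+ list beside 13.4% of all genes and 11.9% of the Lhx9- list beside 5.58%. A further 104 were lower in Lhx9+ and higher in Lhx9- cells, or 16.3% of the Lhx9+ list beside 8.93% of all genes. Genes called the same way in both, in either direction, made up 2.45%. Across the 11470 genes the folds of both subsets had a Pearson r of 0.065 and a Spearman coefficient of 0.065, with genes not being independent replicates. In the 8036 genes detected in at least 50% of cells, 11 were higher and 30 lower in both subsets, against 12 and 14 in opposite directions. Of the 298 genes higher over all low-Actc1 cells, 96 were higher in both subsets, 99 in Lhx9+ cells only and 102 in Lhx9- cells only.

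**Figure D1:**
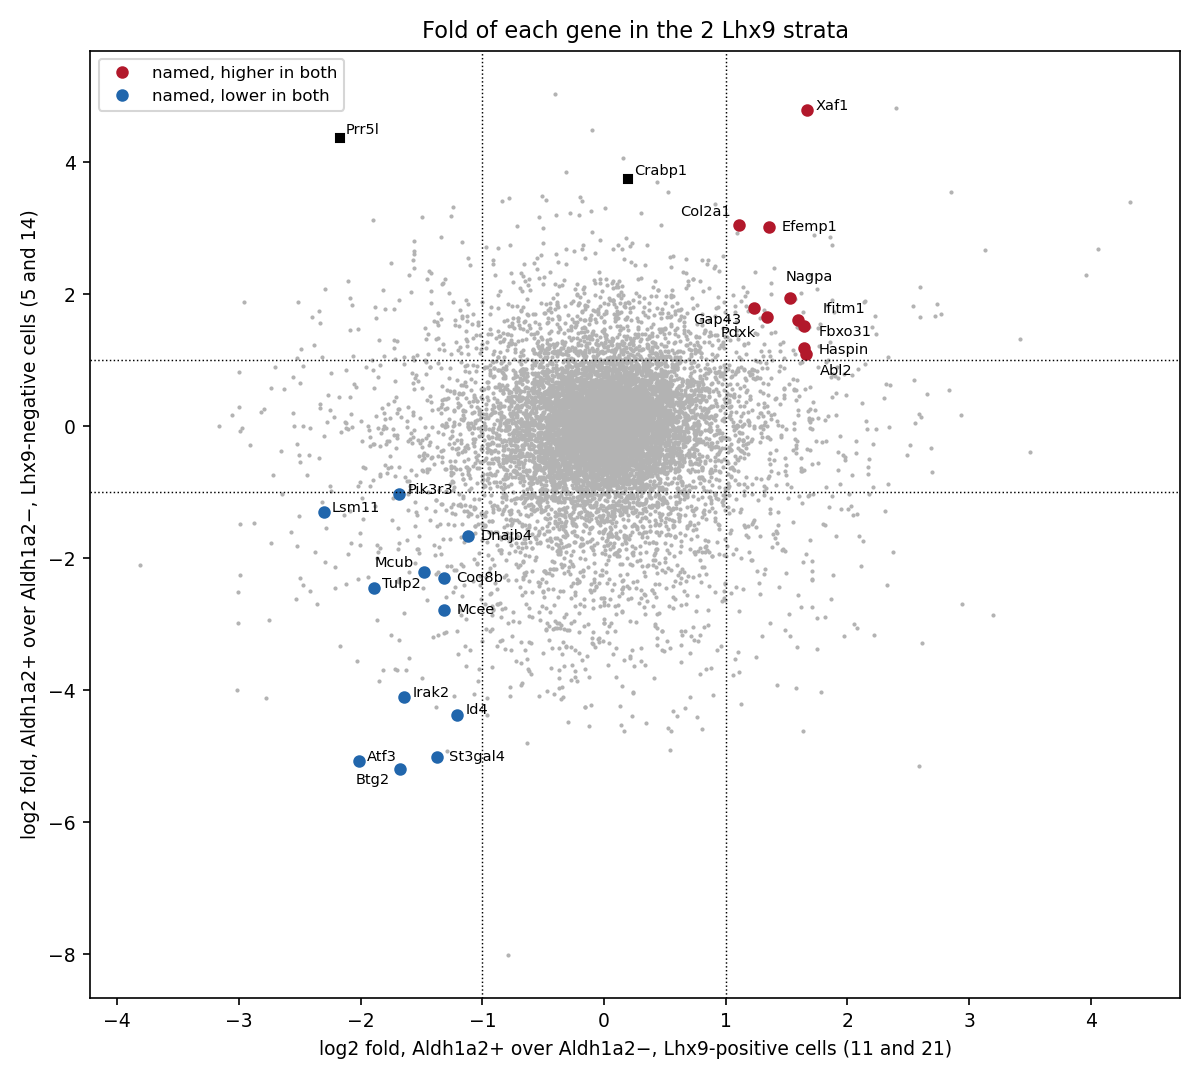
Each point is one of 11470 genes, with its log2 fold (Aldh1a2+ over Aldh1a2-) in Lhx9+ cells on the x axis and in Lhx9- cells on the y axis, and dotted lines mark 2-fold. The named genes were chosen for lying in the upper right or lower left corner, while Prr5l and Crabp1 show genes whose folds differ between the subsets, and the cloud as a whole has little slope (Pearson r 0.065).

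Of 15 listed genes of retinoic acid supply and clearance other than Aldh1a2, 8 passed the detection filter. Over all low-Actc1 cells 0 of the 8 were 2-fold higher and 1 was lower, Rbp4, beside 2.6% and 4.44% of all genes. Of the 8, 6 had a log2 fold above 0, and their median was 0.29 beside 0.0049 over all genes. Adh5, a broadly expressed alcohol dehydrogenase, was at 315 ± 89.5 against 276 ± 84 CPM, and Rdh11, a retinol dehydrogenase, at 32.4 ± 23.5 against 55.1 ± 48.8 CPM. Rbp4, the secreted retinol carrier, was detected in 3 of 16 Aldh1a2+ and 6 of 35 Aldh1a2- cells, and its mean was 2.08 ± 4.66 against 12.8 ± 53.1 CPM. A single Aldh1a2- cell with 312 CPM carried much of that 4.49-fold difference.

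Rdh10, which makes the substrate of Aldh1a2, differed between the subsets. It was detected in 4 of 11 Aldh1a2+ and 2 of 21 Aldh1a2- cells with Lhx9 (9.2 ± 16 against 1.49 ± 5.67 CPM, log2 fold 2.04). Without Lhx9 it was detected in 1 of 5 and 7 of 14 cells (log2 fold -0.74). Cyp1b1, a cytochrome that can also oxidise retinoids, was 7.63-fold higher in Aldh1a2+ Lhx9+ cells (25.7 ± 41.8 against 2.5 ± 6.17 CPM) and near equal without Lhx9 (116 ± 126 against 103 ± 101 CPM). The related dehydrogenases Aldh1a1 and Aldh1a3 had log2 folds of 0.27 and 0.32 over all low-Actc1 cells. Dhrs3, a retinaldehyde reductase that is itself a retinoic acid target, fell short of the filter but had at least 5 counts in 4 of 16 Aldh1a2+ and 1 of 35 Aldh1a2- cells. The retinol transporter gene Stra6 did so in 2 of 16 and 0 of 35 cells (up to 8.57% allowed). Cyp26a1 had no count in any of the 51 cells, and Cyp26b1 stayed under 5 counts in each.

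Among receptors and binding proteins, 10 of 12 passed the filter, 1 was higher and 1 lower, beside 2.6% and 4.44% of all genes. The receptor genes Rara, Rarb and Rxrb had log2 folds of 0.34, 0.17 and 0.30. Rarb, a classical retinoic acid target, was at 24.7 ± 25.3 CPM in Aldh1a2+ and 17.7 ± 32.9 CPM in Aldh1a2- cells with Lhx9, detected in 8 of 11 and 7 of 21. Rxra, the common partner receptor, was 2.03-fold lower (6.24 ± 14.4 against 13.7 ± 16.4 CPM, detected in 5 of 16 and 19 of 35 cells). Crabp2, which delivers retinoic acid to its receptors, was at 137 ± 136 against 103 ± 96.6 CPM.

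Crabp1, a cytoplasmic retinoic acid-binding protein encoded on chromosome 9 (chr9:54764748-54773110, GRCm38, plus strand), was the binding protein gene that was higher, and its difference lay among Lhx9- cells. The 5 Aldh1a2+ Lhx9- cells had 15.0, 18.4, 106, 182 and 315 CPM. Of the 14 Aldh1a2- Lhx9- cells 2 had it, with a maximum of 65.8 CPM and a median of 0. All 5 cells of the first arm were thus above the median of the second, 3 of them above its every cell, and the mean was 13.4-fold higher. With Lhx9 the arms were close, at 8.63 ± 14.1 CPM in Aldh1a2+ and 7.41 ± 14.6 CPM in Aldh1a2- cells. Whether the fold differs between Lhx9+ and Lhx9- cells was not tested.

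**Figure D2:**
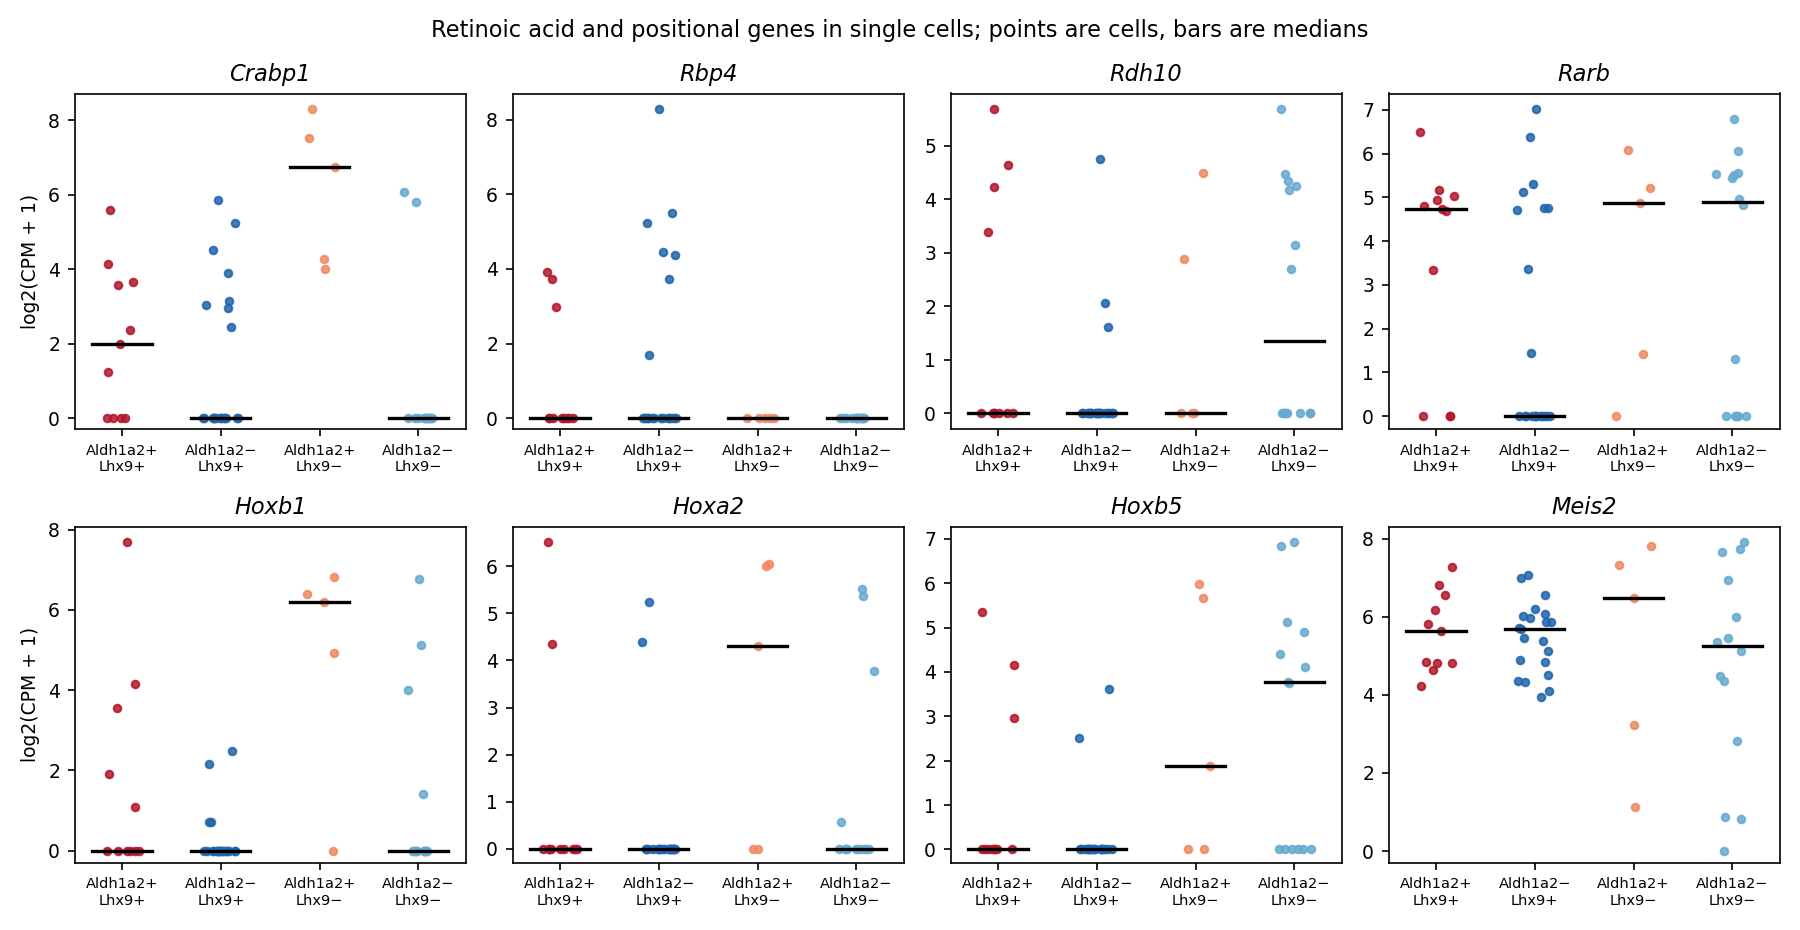
Points are single cells in the 4 arms, the y axis is log2(CPM + 1) and bars are medians. Crabp1 is present in all 5 Aldh1a2+ Lhx9- cells and in 2 of 14 Aldh1a2- Lhx9- cells, Hoxb1 has at least 5 counts in 7 of 16 Aldh1a2+ and 3 of 35 Aldh1a2- cells, and Rarb and Meis2 overlap across arms.

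Among the genes of the retinoic acid response, 2 anterior Hox genes were higher in Aldh1a2+ cells, each in a minority of cells. Of 22 listed response genes 15 passed the filter, 2 were higher (Hoxa2 and Hoxb1) and 1 lower (Tgm2), with a median log2 fold of 0.24. Of all genes, 2.6% were higher and 4.44% lower. Hoxb1, which patterns the hindbrain and marks the posterior part of the second heart field, was detected in 7 of 16 Aldh1a2+ and 3 of 35 Aldh1a2- cells, at 33.3 ± 57.8 against 4.79 ± 18.9 CPM (5.92-fold). In the 5 Aldh1a2+ Lhx9- cells it stood at 0, 29.4, 71.9, 83.1 and 112 CPM, against a median of 0 and a maximum of 107 CPM in the 14 other Lhx9- cells. With Lhx9, 3 of 11 Aldh1a2+ cells had it and 0 of 21 Aldh1a2- cells did (up to 14.3% allowed). One cell at 205 CPM set most of the Lhx9+ mean, and the log2 fold of 3.96 became 1.75 without the highest cell of each arm.

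Hoxa2, an anterior gene of the HoxA cluster, was detected in 5 of 16 Aldh1a2+ and 5 of 35 Aldh1a2- cells and was 3.14-fold higher, by 2.97-fold in Lhx9+ and 3.79-fold in Lhx9- cells. Its log2 fold in Lhx9+ cells, 1.57, became 0.56 without the highest cell of each arm. Hoxa3 did not pass the filter but had at least 5 counts in 3 of 16 and 0 of 35 cells. Hoxb2, by contrast, was detected in most cells of both arms (15 of 16 and 30 of 35) at 67.1 ± 68.8 against 73.6 ± 72.5 CPM. Hoxb5 was 2-fold higher among Lhx9+ cells (log2 fold 1.94, against -0.15 in Lhx9- cells), where Hoxb4 was lower (-1.16). In the list of Hox and positional genes, which shares members with the response list, 15 of 23 passed the filter. Of these, 4 were higher and 0 lower, beside 2.6% and 4.44% of all genes. The median log2 fold was 0.31 (0.91 in Lhx9+ and 0.17 in Lhx9- cells, beside medians near 0 over all genes). Hoxa2, Hoxb1 and Hoxc4 were among the 4 higher genes, and each was higher in both subsets. Other response genes did not differ 2-fold, including the Hox cofactor genes Meis1 (0.31) and Meis2 (0.24) and the orphan receptor genes Nr2f1 (-0.40) and Nr2f2 (0.48). Tgm2, a transglutaminase that retinoic acid induces in many cells, was at 7.54 ± 11.6 against 16.7 ± 34 CPM.

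Beyond this pathway, 12 genes were named as higher in all low-Actc1 cells and in both subsets, so their shared direction follows from the choice. Col2a1, the cartilage collagen, was detected in 12 of 16 against 17 of 35 cells, at 47.8 ± 55 against 13.4 ± 17.4 CPM. Among Lhx9- cells it read 0, 3.34, 44.1, 105 and 184 CPM in the Aldh1a2+ arm and had a median of 0 and a maximum of 49.4 CPM in the other arm. Efemp1, a fibulin of the extracellular matrix that is on the epicardial list, was detected in 8 of 16 and 8 of 35 cells (3.25-fold higher). Gap43, a growth cone phosphoprotein, was 2.7-fold higher.

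Fbxo31, a ubiquitin ligase subunit, was detected in 12 of 16 and 19 of 35 cells at 49.4 ± 40.6 against 16.3 ± 19.9 CPM, and 6 of 11 Aldh1a2+ Lhx9+ cells lay above every Aldh1a2- Lhx9+ cell. The tyrosine kinase gene Abl2 (2.6-fold), the pyridoxal kinase gene Pdxk (2.77-fold), the lysosomal enzyme targeting gene Nagpa (3.2-fold) and the mitotic histone kinase gene Haspin (2.64-fold) ranged from 24.1 to 41.8 CPM in the Aldh1a2+ mean. A pair of interferon-inducible genes also stood here, Ifitm1 (2.83-fold) and Xaf1 (9.89-fold). Xaf1 had 0.6, 1.67, 8.45, 13.4 and 1017 CPM in the 5 Aldh1a2+ Lhx9- cells, so that 1 cell set its mean. Without the highest cell of each arm 6 of the 12 were still at least 2-fold higher in both subsets. Those that were not included Xaf1 (log2 fold 0.16 in Lhx9- cells), Gap43 (0.50 in Lhx9- cells), Haspin (0.06 in Lhx9- cells) and Col2a1 (0.82 in Lhx9+ cells).

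Among the 12 named lower genes, Irak2, Btg2 and Atf3 had the lowest folds over all low-Actc1 cells. Irak2, a kinase of Toll-like and interleukin receptor signalling, was detected in 3 of 16 Aldh1a2+ and 21 of 35 Aldh1a2- cells, at 3.31 ± 6.03 against 25.2 ± 31.2 CPM (6.07-fold lower). Btg2, an antiproliferative early response gene (chr1:134075170-134079120, GRCm38, minus strand), was at 0 in all 5 Aldh1a2+ Lhx9- cells and had a mean of 35.7 ± 89.6 CPM in the 14 others, of which 5 had it. The median was 0 in both of these arms and a single Aldh1a2- cell had 335 CPM, so that the log2 fold of -5.20 became -3.77 without the highest cell of each arm. With Lhx9 it was detected in 4 of 11 and 14 of 21 cells, at medians of 0 and 13.4 CPM.

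Atf3, a stress-induced transcription factor of the CREB and ATF family, showed the same order. Its median was 7.61 CPM in Aldh1a2+ (lowest 0, highest 72.5) and 83.5 CPM in Aldh1a2- Lhx9+ cells (lowest 0, highest 346), detected in 6 of 11 and 19 of 21 cells. No Aldh1a2+ Lhx9+ cell lay above the median of the other arm. In Lhx9- cells the 5 Aldh1a2+ values were 0 in all but one, which had 0.6 CPM, and the 14 Aldh1a2- cells had a mean of 36.7 ± 79.9 CPM. Over all low-Actc1 cells Atf3 was 4.3-fold lower, a log2 fold of -2.11 that became -0.76 when 1 Aldh1a2 count made a cell positive.

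**Figure D3:**
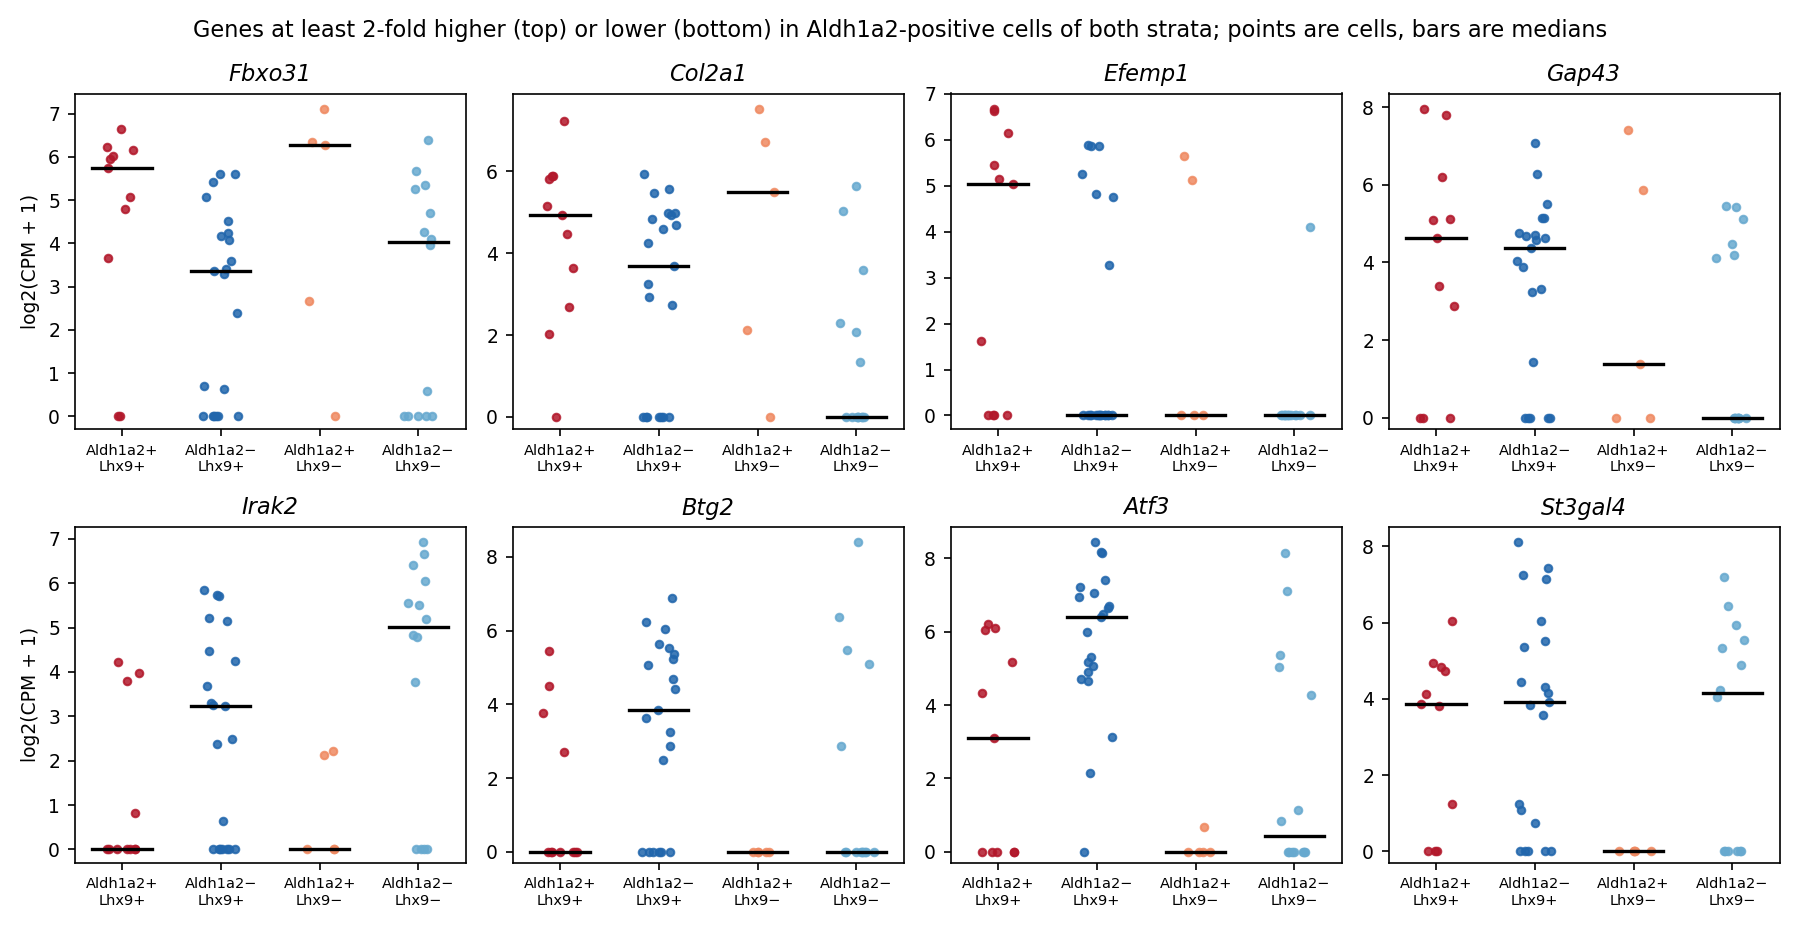
Points are single cells in the 4 arms for genes that were at least 2-fold higher (top row) or lower (bottom row) in Aldh1a2+ cells of both subsets, the y axis is log2(CPM + 1) and bars are medians. All genes overlap between arms in Lhx9+ cells, and Btg2 and St3gal4 are at 0 in all 5 Aldh1a2+ Lhx9- cells.

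The list of genes induced by tissue dissociation held both. Of its 16 members 15 passed the filter, and 5 were lower (Junb, Egr1, Atf3, Hspa1a and Btg2) and 0 higher over all low-Actc1 cells, with a median log2 fold of -0.68 beside 0.0049 over all genes. Among Lhx9+ cells 4 were lower and 1, Zfp36, was higher (median -0.38, 14 of 15 below 0), and among Lhx9- cells 9 were lower and 0 higher (median -1.31). Junb, Atf3 and Btg2 were lower in both. Of all genes, 4.44% were lower over all low-Actc1 cells, 5.58% among Lhx9+ cells, 13.4% among Lhx9- cells and 1.6% in both. The AP-1 genes Jun and Fos were at 372 ± 221 against 595 ± 299 CPM and at 95.6 ± 88.2 against 176 ± 162 CPM, with log2 folds of -0.68 and -0.87 that did not reach 2-fold. Dusp1, an early response phosphatase, was at -0.72, and all 3 were 2-fold lower among Lhx9- cells alone (Fos -1.66, Jun -1.14, Dusp1 -1.47), while the chaperone genes Hsp90aa1 and Hsph1 had log2 folds of 0.02 and -0.01. Summed over the list, Aldh1a2+ cells ranged from 1038 to 3083 CPM with a median of 2219, and Aldh1a2- cells from 1424 to 4903 with a median of 2778. When and for how long single cells were handled is not labelled, and the part of handling in this difference was not tested. Junb exons overlap those of Prdx2 on the other strand, so reads of the pair may be shared.

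Lsm11, a histone pre-mRNA processing factor, was 3.77-fold lower and detected in 2 of 16 against 22 of 35 cells. The mitochondrial genes Mcee (3.38-fold lower), Mcub, a subunit that restrains the calcium uniporter (3.22-fold lower), and Coq8b, of coenzyme Q synthesis (3.08-fold lower), were also named. The log2 fold of Mcub, -1.69, became -0.41 when 1 Aldh1a2 count made a cell positive. Mitochondrially encoded genes held a median of 1.20% of counts in Aldh1a2+ and 2.21% in Aldh1a2- Lhx9- cells, and of 1.99% and 1.90% in Lhx9+ cells. All 13 mitochondrially encoded genes had log2 folds below 0 over all low-Actc1 cells, with a median of -0.21 and none at 2-fold. Their median was -0.19 in Lhx9+ cells, where 2 were above 0, and -0.43 in Lhx9- cells, where all 13 were below 0. St3gal4, a sialyltransferase gene, was at 0 in all 5 Aldh1a2+ Lhx9- cells. Against a floor of 3 counts over the arm, with no 1 CPM added, its mean was at least 51.4-fold lower than in the 14 others. That limit covers counting error in the 5 cells only and not the spread between cells. With Lhx9, St3gal4 was 2.59-fold lower. Dnajb4, a heat shock protein 40 family member, was at 13.6 ± 16.7 against 38.7 ± 48.8 CPM, Id4, an inhibitor of basic helix-loop-helix factors, was 2.69-fold lower and Pik3r3, a regulatory subunit of phosphoinositide 3-kinase, was 2.69-fold lower. Tulp2 (3.62-fold lower) has exons that overlap those of Ppp1r15a, a stress-induced phosphatase regulator, on the opposite strand, and counts of the pair may not be separable. Without the highest cell of each arm 11 of the 12 lower genes stayed at least 2-fold lower in both subsets, the exception being Id4 (log2 fold -0.82 in Lhx9+ cells).

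Promoters are shown for the lower genes whose sequence holds the core of the cAMP response element, TGACGT, to which CREB and ATF family proteins bind. RefSeq promoters (GRCm38.p6, 250 bases before to 50 after the start) matched 11 of the 12 lower genes, and 3 of these (Atf3, Btg2 and Dnajb4) held TGACGT on either strand, as did 0 of the 8 matched higher genes. Of all 32851 promoters given by RefSeq, 7.51% held it. The capitals mark each match, which reads ACGTCA where it lies on the other strand, and all 3 genes are on the minus strand.
Atf3 (chr1:191183284-191183583): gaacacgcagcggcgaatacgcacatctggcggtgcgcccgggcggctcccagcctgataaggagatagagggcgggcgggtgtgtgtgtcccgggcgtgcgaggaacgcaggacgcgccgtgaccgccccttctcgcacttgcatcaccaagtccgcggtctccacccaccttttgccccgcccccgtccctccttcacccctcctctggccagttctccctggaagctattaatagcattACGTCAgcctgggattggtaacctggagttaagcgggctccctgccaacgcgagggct
Btg2 (chr1:134079106-134079405): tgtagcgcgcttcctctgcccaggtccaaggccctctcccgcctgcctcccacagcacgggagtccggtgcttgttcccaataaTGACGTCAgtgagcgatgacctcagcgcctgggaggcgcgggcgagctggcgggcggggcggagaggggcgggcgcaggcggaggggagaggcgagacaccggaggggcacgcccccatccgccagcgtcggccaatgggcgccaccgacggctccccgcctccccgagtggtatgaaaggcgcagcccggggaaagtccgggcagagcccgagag
Dnajb4 (chr3:152210034-152210333): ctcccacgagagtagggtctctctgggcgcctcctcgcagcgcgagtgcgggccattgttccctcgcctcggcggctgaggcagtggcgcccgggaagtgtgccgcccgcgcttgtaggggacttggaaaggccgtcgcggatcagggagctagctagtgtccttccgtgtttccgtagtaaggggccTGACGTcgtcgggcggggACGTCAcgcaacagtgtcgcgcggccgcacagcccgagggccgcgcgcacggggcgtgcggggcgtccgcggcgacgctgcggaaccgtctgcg
The match of Atf3 begins 8 bases before the start, those of Btg2 166 and 164 bases before it as a full palindrome, and those of Dnajb4 62 and 44 bases before it. Such a match is a string of letters in this window and says nothing of binding in these cells.

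Some targets of the Hippo pathway effectors YAP and TAZ, which act through TEAD factors, were lower, close to the 2-fold limit. All 12 Hippo list members passed the filter, 3 were lower (Ccn1, Ccn2 and Ankrd1) and 1 higher (Tead4), with a median log2 fold of -0.07. Of all genes, 4.44% were lower, 2.6% were higher and 1.6% were lower in both subsets. Ccn1, a matricellular protein, was present in every cell, with a median of 378 CPM in Aldh1a2+ (lowest 21, highest 1297) and 845 CPM in Aldh1a2- cells (lowest 115, highest 2602), 2.1-fold lower in the mean. Its 5 Aldh1a2+ Lhx9- values were 48.2, 162, 343, 476 and 724 CPM beside a median of 1209 CPM in the 14 others (lowest 357). Ccn2, the related connective tissue growth factor, was at 214 ± 310 against 435 ± 613 CPM, and Ankrd1, a nuclear ankyrin repeat protein, at 5.33 ± 7.75 against 15.5 ± 24.2 CPM. Ccn2 and Ankrd1 were 2-fold lower in both subsets, and Ccn1 only in Lhx9- cells (3.27-fold, against 1.69-fold with Lhx9). The effector genes Yap1 (log2 fold 0.09) and Wwtr1 (-0.64) and the kinase genes Lats1 (-0.23) and Lats2 (0.28) were within 2-fold. The number of lower members was 3 at 5 Aldh1a2 counts, 0 when 1 count made a cell positive, 1 at an Actc1 limit of 2000 CPM and 1 without the cell of highest haemoglobin.

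The TEAD core GGAATG was found in promoters of 7 of 9 matched Hippo list genes, Ccn1 and Ankrd1 among them, and in 14.7% of all promoters. The pair of lower genes is shown, with each GGAATG in capitals, which reads CATTCC where it lies on the other strand. The promoter of Ccn1 also holds the CREB core, likewise in capitals as ACGTCA. Both genes are on the minus strand, and Ccn2 has no entry in the table.
Ccn1 (chr3:145649936-145650235): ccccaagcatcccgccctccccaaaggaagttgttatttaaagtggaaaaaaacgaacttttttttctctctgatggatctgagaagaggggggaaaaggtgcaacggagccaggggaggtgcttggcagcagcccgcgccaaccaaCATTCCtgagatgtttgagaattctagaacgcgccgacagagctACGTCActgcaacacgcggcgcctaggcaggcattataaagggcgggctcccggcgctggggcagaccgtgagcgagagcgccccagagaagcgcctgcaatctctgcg
Ankrd1 (chr19:36119795-36120094): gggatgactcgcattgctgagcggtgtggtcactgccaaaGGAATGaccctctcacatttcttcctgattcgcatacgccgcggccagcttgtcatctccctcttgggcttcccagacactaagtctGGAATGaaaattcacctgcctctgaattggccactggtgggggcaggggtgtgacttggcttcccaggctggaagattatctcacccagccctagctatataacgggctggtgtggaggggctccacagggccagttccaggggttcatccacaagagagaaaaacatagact
In Ankrd1 the matches begin 210 and 123 bases before the start, and in Ccn1 the TEAD core begins 103 bases before it. The retinoic acid receptor half-site AGGTCA, for comparison, was found in 1 of 14 matched response genes (Hoxb4), 3 of 8 matched higher genes (Haspin, Pdxk and Xaf1) and 3 of 11 matched lower genes (Btg2, Irak2 and Lsm11), and in 16.3% of all promoters. A gene can have several promoters in the table, so shares of genes and of promoters have different denominators. Counted as promoters, the motif shares were 5.00% of 20 for AGGTCA in the response list, 25.0% of 16 for TGACGT in the lower genes and 69.2% of 13 for GGAATG in the Hippo list.

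Of 12 listed p53 and apoptosis genes 9 passed the filter, and 3 were lower over all low-Actc1 cells (Trp53inp1, Fas and Sesn2) and 0 higher, beside 4.44% lower among all genes. With Lhx9, 4 of the 9 were lower (median log2 fold -0.73) beside 5.58% of all genes, and without Lhx9 1 of the 9 was, beside 13.4%. Trp53inp1, a p53-induced regulator of cell death, was detected in 1 of 11 Aldh1a2+ and 8 of 21 Aldh1a2- Lhx9+ cells. Sesn2, a stress-induced inhibitor of growth signalling, was detected in 3 of 11 and 12 of 21. The death receptor gene Fas reached 5 counts in 0 of 11 and 7 of 21 cells, where a count of 0 allows up to 27.3%.

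Several genes differed in one subset and not in the other, or in opposite directions. Among Lhx9- cells, Prr5l, an mTORC2-associated protein, was present in all 5 Aldh1a2+ cells (4.22, 36, 39.6, 78.6 and 150 CPM) and in 1 of 14 Aldh1a2- cells (maximum 21.5 CPM), 20.6-fold higher. Among Lhx9+ cells the same gene was 4.51-fold lower (7.53 ± 13.2 against 37.5 ± 53.8 CPM). Shroom3, an actin regulator of epithelial folding, stood at 0, 10.8, 53.8, 88.1 and 113 CPM in the 5 cells against a maximum of 14.2 CPM in the 14 (16.8-fold). With Lhx9 it was at 4.52 ± 9.37 against 3.96 ± 14.3 CPM. Dkk1, the secreted Wnt inhibitor, was 7.24-fold lower among Lhx9- cells (28.3 ± 47.6 against 211 ± 202 CPM, detected in 2 of 5 and 13 of 14) and 9.16-fold higher among Lhx9+ cells (41.1 ± 88.6 against 3.59 ± 10.8 CPM, detected in 3 of 11 and 2 of 21). None of these differences between subsets was tested.

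Genes low in the 5 Aldh1a2+ Lhx9- cells were often at 0 there. Pnmt, which makes adrenaline, was at 0 in all 5 and detected in 7 of 14 others, a mean at least 44.1-fold lower. The zinc finger genes Zfp286 (at least 38.8-fold) and Zxdc (at least 37.9-fold) and Rwdd2b (at least 37.5-fold) were also at 0 in all 5. These limits were set as for St3gal4 and likewise cover counting error in the 5 cells only, not the spread between cells. Rgs10, a regulator of G protein signalling, read 0, 0, 0, 0.603 and 1.67 CPM against a median of 24.8 CPM. These 5 cells were also the shallower arm, and the part of depth was not tested for these genes. Over all low-Actc1 cells, the 24 genes named in both subsets were all still at least 2-fold after thinning each cell to 354002 counts and leaving out the 5 shallower ones. Among Lhx9+ cells the named lower genes were the steroid dehydrogenase gene Hsd3b1 (8.04-fold, detected in 2 of 11 and 11 of 21), the ciliary transport gene Ttc30a1, the ephrin receptor gene Epha1, the tetraspanin gene Tspan18, Lsm11 and Prr5l. The named higher genes were Sergef (7.15-fold, detected in 6 of 11 and 3 of 21), Btbd19 (detected in 7 of 11 and 2 of 21), the guanine nucleotide exchange factor gene Arhgef17 (7 and 3), the mitochondrial formyltransferase gene Mtfmt and the globin genes Hbb-bs and Hba-a2.

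The globin genes rested on 1 cell. Of 11 erythroid list members 5 passed the filter and 4 were higher over all low-Actc1 cells and in Lhx9+ cells, 0 in Lhx9- cells. The shares of all genes higher were 2.6%, 4.63% and 8.93%. One Aldh1a2+ Lhx9+ cell held 2310 CPM of summed haemoglobin transcripts, the next Aldh1a2+ cell held 260 CPM and the median was 20.1 CPM in Aldh1a2+ and 13.4 CPM in Aldh1a2- cells. Without the highest cell in each arm the log2 fold of Hbb-bs went from 1.81 to 0.45 and that of Hba-a2 from 1.76 to 0.52. Alb, a hepatoblast gene and the only one of 16 foregut and liver members to pass the filter, was detected in 2 of 16 and 10 of 35 cells. Its log2 fold was 1.37 over all low-Actc1 cells (0.46 without the highest cell of each arm), 1.80 in Lhx9+ and -1.47 in Lhx9- cells. Apob, Hnf4a and Foxa2 were at 0 in all cells.

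Epicardial genes overlapped widely between the arms. Of 27 epicardial and mesothelial genes 26 passed the filter, 1 was higher (Efemp1) and 0 lower over all low-Actc1 cells. Of all genes, 2.6% were higher and 4.44% lower. The median log2 fold of the list was 0.05. Tbx18 was at 212 ± 130 against 204 ± 98.4 CPM, Wt1 at 114 ± 76.1 against 113 ± 73.1 CPM, Tcf21 at 209 ± 138 against 278 ± 197 CPM and Lhx9 at 132 ± 134 against 121 ± 129 CPM. Summed epicardial transcripts had medians of 3701 CPM in Aldh1a2+ (1041 to 7571) and 3663 CPM in Aldh1a2- cells (627 to 8397). Among Lhx9- cells 7 members were higher and 6 lower, beside 8.93% and 13.4% of all genes. The median log2 fold of the list there was -0.18, with 12 members above 0 and 14 below. The surface genes Upk3b, Upk1b, Lrrn4 and Podxl and the keratin gene Krt19 were higher among Lhx9- cells. For each of them, 1 to 3 of the 5 cells had at least 5 counts. Bnc1, an epicardial zinc finger gene, read 0, 0, 54.6, 102 and 103 CPM against a median of 0. The transcription factor genes Scx and Sox9 and the integrin gene Itga4 were lower, Itga4 reading 0, 0, 1.67, 3 and 4.75 CPM against 27 ± 53.9 CPM. Also lower among Lhx9- cells were the keratin gene Krt7, the membrane gene Tm4sf5 and Aldh1a1. Tm4sf5 and Aldh1a1 were at 0 in all 5 Aldh1a2+ cells, with means of only 1.09 and 1.41 CPM in the 14 others. Tm4sf5 was lower in Lhx9+ cells too. Lhx2, a LIM homeobox gene of the septum transversum, was at 35.2 ± 73.5 against 57.8 ± 129 CPM, and Actc1, which chose the cells, at 31.7 ± 68.1 against 44.7 ± 84.8 CPM.

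Other mesenchymal and muscle lists held single genes of interest. Des, the intermediate filament desmin, was 2.63-fold lower (66.3 ± 71.3 against 176 ± 172 CPM), and in Lhx9- cells it stood at 0, 72.3, 92, 174 and 234 CPM against a median of 267 CPM. Kdr, a receptor of vascular endothelial growth factor, was higher in both subsets but in few cells (4 of 16 and 2 of 35), while the endothelial markers Cdh5, Etv2 and Cldn5 were at 0 in all cells. Pdgfrb, a receptor of perivascular cells, was 2.19-fold higher, detected in all 5 Aldh1a2+ Lhx9- cells and in 10 of 14 others, and in 3 of 11 and 3 of 21 cells with Lhx9. Of 13 smooth muscle and pericyte genes 7 passed, with Pdgfrb higher and Myocd lower, beside 2.6% and 4.44% of all genes. Their median log2 fold was 0.03. Tagln and Rgs5 were lower among Lhx9- cells, while Rgs5 was higher and Myocd lower among Lhx9+ cells. The basement membrane collagen gene Col4a1 was 3.28-fold lower and fibronectin, Fn1, was at 236 ± 119 against 452 ± 240 CPM (log2 fold -0.94). Of 11 cardiomyocyte genes that passed, Tnnc1 and Csrp3 were higher and the titin gene Ttn lower, beside 2.6% and 4.44% of all genes. The median log2 fold of the 11 was -0.41, with 8 below 0 and 3 above. Among Lhx9+ cells 10 were below 0, with Actn2, Tnni3 and Ttn lower beside 5.58% of all genes, and only Tnnc1 was higher. Among Lhx9- cells 7 were above 0 and 4 below. A single Aldh1a2+ Lhx9- cell had 131 CPM of Tnnc1 and 1 had 139 CPM of Csrp3. In the leukocyte list Aif1, Fcgr3 and Tyrobp were at 0 in all cells, and in the neural crest list Foxd3 was.

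Signalling lists were mixed over all low-Actc1 cells, where 2.6% of all genes were higher and 4.44% lower. Among Lhx9- cells 8.93% of all genes were higher. In the BMP list 18 of 21 passed, 2 were higher (Bmp6 and Msx1) and 1 lower (Id4). Msx1, a BMP-responsive homeobox gene, had a log2 fold of 4.02 (4.32 in Lhx9+ and 3.39 in Lhx9- cells). It was detected in 5 of 16 Aldh1a2+ and 1 of 35 Aldh1a2- cells, with 24.4 ± 54.8 against 0.568 ± 2.35 CPM. Its 5 Aldh1a2+ Lhx9- values were 0, 0, 12.1, 13.4 and 63.3 CPM, and with Lhx9 it was in 2 of 11 and 0 of 21 cells. The Wnt list had 18 of 21 members past the filter, 0 higher and 2 lower (Dkk1 and Rspo3). Dkk1 and Rspo3 were both lower among Lhx9- cells but higher among Lhx9+ cells. Only Wnt2b was lower in both subsets, beside 1.6% of all genes. It was at 0 in all 5 Aldh1a2+ Lhx9- cells, with a mean of only 1.36 CPM in the 14 others. The secreted Wnt inhibitor gene Sfrp5, an inflow marker, was at 44.2 ± 44.1 against 347 ± 399 CPM in Lhx9- cells, 7.69-fold lower, and 1.68-fold lower with Lhx9. In the FGF list Fgfr3 and Etv5 were higher and 0 lower of 12, although 8 were below 0 and 4 above (median -0.29). In the Notch list Jag1 and Hey2 were lower and 0 higher of 9, although 5 were above 0 and 4 below (median 0.16). Of 9 hedgehog genes that passed the filter, all had log2 folds above 0 among Lhx9- cells (median 0.90), where Ptch1, Gas1 and Cdon were 2-fold higher, and 3 did among Lhx9+ cells (median -0.24). Gas1, a co-receptor, was at 306 ± 219 against 127 ± 76.3 CPM there and at 126 ± 126 against 161 ± 134 CPM with Lhx9.

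Cell cycle genes differed in direction between the subsets. All 20 S phase genes had log2 folds above 0 among Lhx9- cells (median 0.58). There 3 were 2-fold higher (Rrm2, Ung and Cdc45), beside 8.93% of all genes. With Lhx9, 10 of the 20 were above 0 (median -0.03). Of 20 genes of G2 and M phase, 17 were below 0 among Lhx9- cells (median -0.59), where 6 were 2-fold lower (Ccnb1, Bub1, Cenpe, Tpx2, Kif23 and Ube2c) beside 13.4% of all genes. Among Lhx9+ cells 19 of the same 20 were above 0 (median 0.43) and 0 reached 2-fold. Cells differed far more than the arms, with summed G2 and M phase transcripts from 156 to 5744 CPM over the 5 Aldh1a2+ Lhx9- cells and from 160 to 11120 CPM over the 14 others. The medians of these sums, 3477 against 3265 CPM, had the opposite order to the means, 2803 against 4229 CPM. Cell cycle genes are expressed together within a cell, so such counts describe few cells and not many independent genes.

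**Figure D4:**
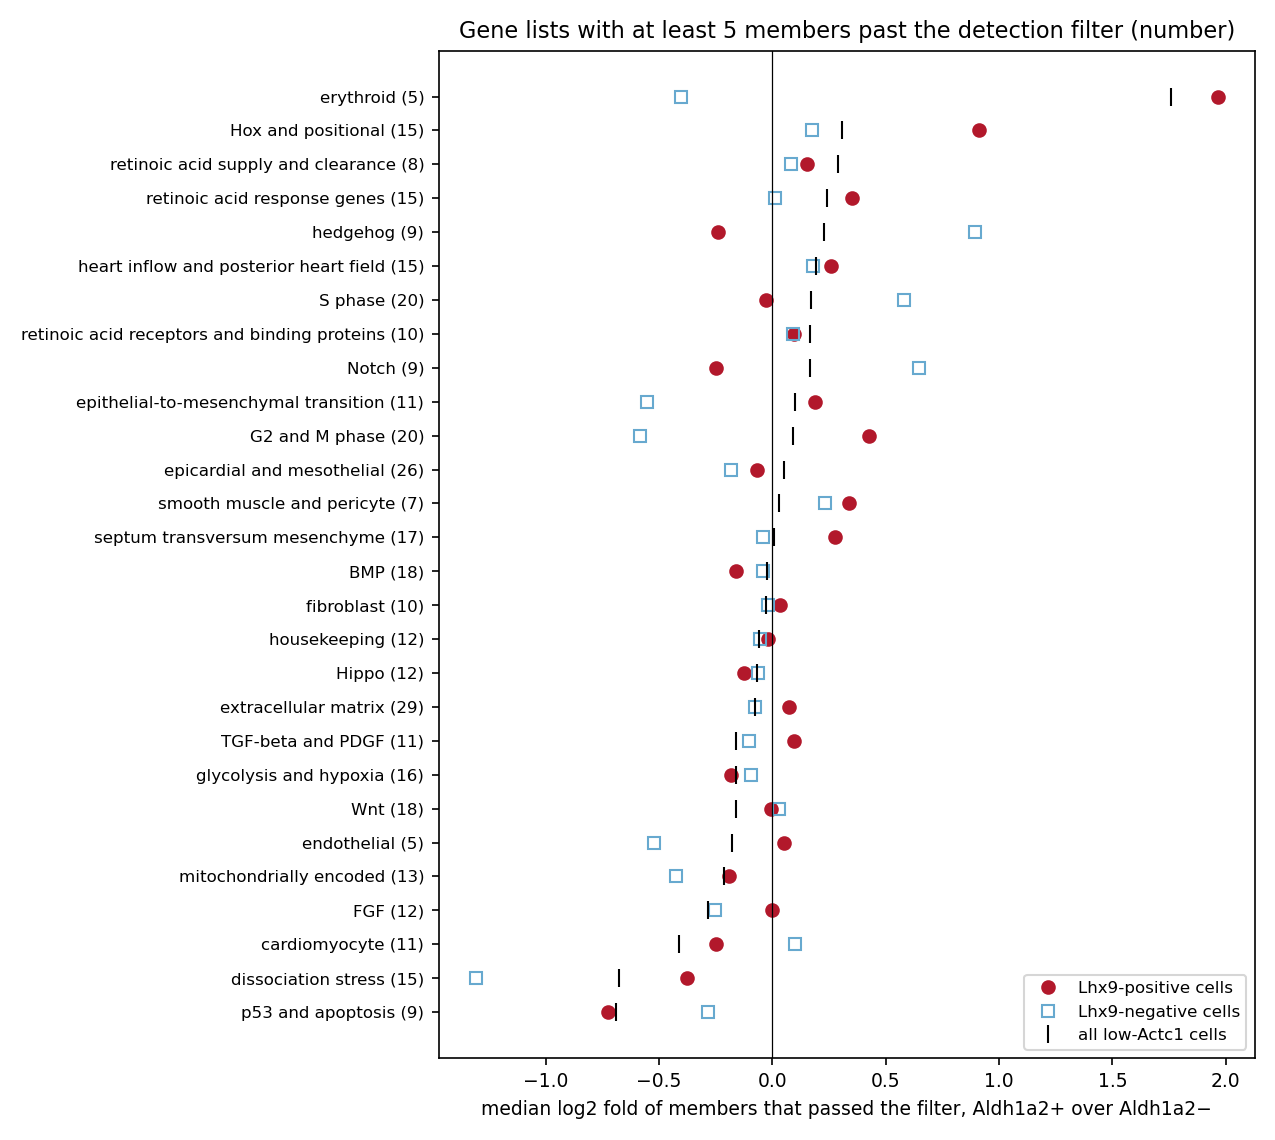
Median log2 fold (Aldh1a2+ over Aldh1a2-) of the members that passed the detection filter, for gene lists with at least 5 such members (their number in brackets), in Lhx9+ cells (filled circles), Lhx9- cells (open squares) and all low-Actc1 cells (ticks). The dissociation stress and p53 lists have medians of -0.68 and -0.69 over all low-Actc1 cells, the erythroid list lies at 1.76 with 1 cell of 2310 CPM, and the G2 and M phase and hedgehog lists lie on opposite sides of 0 in the subsets.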

How the data were processed

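Polyadenylated RNA of single cells was amplified with SMART-Seq v4 and sequenced as Nextera XT libraries, per the labels' protocols. The authors deposited 1 table of estimated counts per Ensembl gene, which hold whole numbers. The submitters' processing notes name kallisto, with no version, and the human build hg38, although every gene identifier is a mouse one. Which index was used is not settled by the sources used here. Symbols and positions came from the GENCODE M21 annotation (GRCm38), and symbols of identifiers absent from it were looked up in a further list of gene names. A symbol was found for 29936 of 30323 identifiers. The other 387 held 0.346% of counts. Where exons of 2 genes overlap, estimated counts may be shared between them.

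CPM was computed as count divided by the column's sum, times 1000000. The members and the gene lists were chosen with earlier results of these data known. Genes had to reach 5 counts in at least 10% of kept cells (and at least 6 cells), which left 11470 without Aldh1a2, the gene that defined the arms. Higher and lower mean a 2-fold or larger ratio of mean CPM after adding 1 CPM to both means. No embryo, litter or batch is labelled, so the 74 cells count as 1 sample and no test was run. Intervals on shares are exact Clopper-Pearson intervals at 95% and cover counting error only.

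Genes were named by rule. It took 12 higher and 12 lower genes called in all low-Actc1 cells and in both Lhx9 subsets, present in at least 50% of cells of the higher arm at a mean of 20 CPM or more, then 6 and 6 per subset. It also took all retinoic acid genes, the called members of the other lists, and Tbx18, Wt1, Tcf21, Lhx2, Lhx9 and Actc1. Predicted genes and pseudogenes were passed over, and results of some genes that the rule named are not reported here, although they remain in the counts. Other genes named with values (Yap1, Wwtr1, Lats1, Lats2, Hsp90aa1 and Hsph1) are list members chosen after their values were seen. Motifs were searched on both strands of RefSeq promoters (GRCm38.p6). Alternatives covered the Aldh1a2, Lhx9 and Actc1 limits, the pseudocount, the filter, the summary, depth thinning, scran size factors and leaving out cells. The calculation was tested on simulated data. Computation ran in Python 3.11.15 (pandas 2.3.3, numpy 2.4.6 and, for intervals, SciPy 1.17.1), size factors came from scran 1.30.0 under R 4.3.3, and plots from matplotlib 3.10.9.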

Additional observations from a re-analysis of the deposited data

Results flagged for a closer look

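In 8 of 41 named genes checked, the highest of the 5 Aldh1a2+ Lhx9- cells stood far from the other cells of its arm. The measure was its gap to the next cell over the range of the arm. How often chance gives such a gap in values with many zeros was not tested. Many of these genes were named by folds of means, which 1 high cell can raise. The highest value was 1017 CPM for Xaf1, 164 CPM for Dcxr, 30.1 CPM for Btbd19, 39.02 CPM for Arhgef17 and 98.6 CPM for Ttc30a1. Among genes that were lower in this arm it was 34.8 CPM for Lsm11, 33.0 CPM for Mcub and 24.1 CPM for Coq8b. These values were not all from the same cell.

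Aldh1a2 was also detected in 2 of the 23 cells left out for their Actc1 level. One had 15 counts (37.1 CPM) of Aldh1a2 beside 1154 CPM of Actc1, and the other had 21 counts (67.2 CPM) beside 4043 CPM.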

How the results depend on the processing

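Of 166 counts of genes recomputed under 16 alternatives, 14 of them planned and 2 added after seeing the data, 123 stayed within 1.5 times the value reported. Some of the 123 could not move. An Lhx9 limit of 10 counts left every cell in its arm, and Aldh1a2 limits of 1 and 10 counts did so among Lhx9- cells. With a pseudocount of 10 CPM, higher and lower genes numbered 29 and 39 over all low-Actc1 cells, 61 and 63 in Lhx9+ cells, 337 and 470 in Lhx9- cells and 12 and 9 in both, with 3 stress genes lower, 2 Hox genes higher and 1 Hippo gene lower. With no filter the numbers were 712 and 883, 1012 and 1054, 1553 higher in Lhx9- cells, 163 and 288 in both, and 10 Hox genes. With mean log2(CPM + 1), 541 genes were higher over all low-Actc1 cells, 1700 in Lhx9- cells, 189 were higher and 105 lower in both, and 2 Hox genes were higher. Without each gene's highest cell in each arm, 823 were lower over all low-Actc1 cells, 1033 lower in Lhx9+ cells, 678 higher and 2716 lower in Lhx9- cells and 56 higher and 449 lower in both. That setting also moved the median of all genes to -0.07, -0.08 and -0.25. With only genes in at least 50% of cells (added after seeing the data) the numbers were 42 and 92, 107 and 140, 375 and 574, 11 and 30, with 1 stress and 1 Hox gene. Lower Hippo genes numbered 0 at 1 Aldh1a2 count, 1 at 2000 CPM of Actc1 and 1 without the cell of highest haemoglobin (added after seeing the data). Of 323 folds of named genes, 0 reversed direction and 322 shifted by no more than the SD of log2(CPM + 1) over cells. That limit is wide, since Atf3 going from -2.11 to -0.76 and Mcub from -1.69 to -0.41 stayed within it. The exception was Xaf1, which moved to a log2 fold of 1.09 with mean log2 values. Of the 24 genes named in both subsets, 17 were still at least 2-fold over all low-Actc1 cells with a pseudocount of 10 CPM, 20 with mean log2 values, 22 at 1 Aldh1a2 count (Atf3 at -0.76 and Mcub at -0.41 were not) and 22 at 10 Aldh1a2 counts (Gap43 at 0.86 and Abl2 at 0.93 were not). The depth of single cells limits genes of few counts, and the arm of 5 cells limits every value in Lhx9- cells. No paired analysis was possible because the cells form 1 group with no replicate numbers and no test was run.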
